A study of Homo sapiens with 3 samples.

Results

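The genes described here are 41 named members of the interferon system in human cells: sensors of double-stranded RNA, the proteins that relay their signal, interferon-stimulated genes and genes of MHC class I antigen presentation. They were taken by gene symbol as known genes of the pathway. The rule sets no threshold on a measured value, but the list was drawn up with earlier results of these data known. All 41 were among the 17448 genes of the table. RNA was sequenced from H128, an established cell line of small cell lung cancer, 48 h after transfection with siRNA. The siCont library received the control, which the labels call vehicle siRNA, and the siERRG2 and siERRG3 libraries each received a different siRNA against ESRRG, the gene of the orphan nuclear receptor ERRγ. The question of the knockdown was which transcripts depend on ERRγ in these cells. All 3 libraries came from transfected cells of 1 line, no untransfected library was analysed here, and it is not settled which of the study's siRNA sequences belongs to which label.

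Double-stranded RNA in the cytosol is bound by RIG-I-like receptors. Of these, RIG-I and MDA5 signal through the mitochondrial protein MAVS and the kinase TBK1 to the transcription factors IRF3 and IRF7. These factors act on type I interferon genes. Secreted interferon acts back on cells through its receptor and a complex that holds STAT2 and IRF9, which binds the interferon-stimulated response element in the promoters of antiviral genes. The same signals, and interferon gamma in particular, raise the MHC class I chains, the peptide transporter TAP and the immunoproteasome. Small cell lung cancers are known for low MHC class I on the cell surface, and short double-stranded RNA, the form in which siRNA is delivered, can itself be a ligand of some of these sensors.

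Promoter sequences are shown first, because the interferon-stimulated response element is the feature that ties many of these genes to 1 pathway and the choice of members did not use it. RefSeq promoter windows of 300 bases (GRCh38.p14, 250 before to 50 after a start) were found for 34 of the 41 members, in 44 windows since some genes have several starts. DHX58, IRF3, IRF7, IFIT2, MX2, OAS2 and OASL had no entry. The core letters GAAANNGAA, searched on both strands, were present in 24 of the 44 windows (54.5%), against 8.11% of all 35116 windows of the table. By gene, 20 of 34 members (58.8%) held the core in at least 1 window, against 9.86% of 27305 genes. The letters TTCNNNGAA of a gamma-activated site, an element of the interferon gamma response, were present in 11 of the 44 windows (25%), against 7.66% of all. The letters TCAAGGTCA of an ERR response element were present in 0 of the 44 windows, against 0.353% of all, which says only that these exact letters are not in these windows. The members were picked as genes of the interferon system, so these shares are a description of them. A match of letters is not a measured binding site, and matches of the first pair of motifs can overlap each other.

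The following stretches of 30 bases, on the strand of the gene and 5′ to 3′, show the core in members whose counts are described below. Capitals mark the 9 letters of the core, which reads TTCNNTTTC where it lies on the opposite strand. IFI6 is shown in a pair of copies, because its upstream region repeats nearly the same stretch.
ISG15 (chr1:1013380-1013409, plus strand): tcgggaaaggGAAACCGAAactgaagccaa
IFI6, copy far from the start (chr1:27672329-27672358, minus strand): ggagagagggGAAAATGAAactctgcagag
IFI6, copy near the start (chr1:27672288-27672317, minus strand): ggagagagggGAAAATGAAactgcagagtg
OAS3 (chr12:112938452-112938481, plus strand): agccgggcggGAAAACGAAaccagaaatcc
IFIT5 (chr10:89414514-89414543, plus strand): tctattaagtTTCGGTTTCtgaagcttacg
MX1 (chr21:41420559-41420588, plus strand): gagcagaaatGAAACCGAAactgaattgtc
EIF2AK2 (chr2:37156967-37156996, minus strand): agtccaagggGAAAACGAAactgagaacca
B2M (chr15:44711369-44711398, plus strand): ctaagaaaagGAAACTGAAaacgggaaagt
Counted from the start, with upstream bases negative, the core began at position -107 in ISG15, at -156 and -115 in the IFI6 copies and at -12 in OAS3. It began at -44 in IFIT5, at -6 in EIF2AK2 and at -138 in B2M. In MX1 it lay inside the transcript, from position 12 to position 20 of a first exon. Among the 14 members with a window but no match to the core were ADAR, MAVS, TBK1, TRIM25 and the sensor gene DDX58.

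Each library had between 19861937 and 20016780 counts. The counts are estimated reads per gene, rounded to whole numbers, and levels between genes are compared as FPKM (fragments per kilobase of transcript per unit of library size), as deposited. ESRRG had 806 counts with siCont, 211 with siERRG2 and 230 with siERRG3, and its log2 fold changes were -1.94 and -1.82. Where 3 values follow each other, they are in the order siCont, siERRG2, siERRG3, and paired fold changes or ratios are those of siERRG2 and siERRG3 to siCont. Of 11 markers of neuroendocrine cells and small cell lung cancer analysed, 10 reached 10 counts, and their summed level was 1443 FPKM for siCont, 1307 FPKM for siERRG2 and 1601 FPKM for siERRG3. Among them INSM1 was at 183, 93.3 and 161 FPKM and NEUROD1 at 123, 117 and 67.3 FPKM, while POU2F3 and YAP1, which mark other subtypes of this cancer, did not pass 11 counts. Of 8 immune markers analysed, 4 reached 10 counts, and their summed level was 5.66 FPKM for siCont, 5.23 FPKM for siERRG2 and 6.3 FPKM for siERRG3. PTPRC, the gene of the white blood cell antigen CD45, was at 21, 25 and 29 counts. Of 4 endothelial markers 2 reached 10 counts, with CDH5 at 1456, 1623 and 585 counts, and of 6 fibroblast markers 4 did, with COL1A2 at 2043, 2896 and 2505 counts and LUM at 83, 183 and 58. All 4 epithelial markers did, with KRT18 at 74, 45 and 81 counts. Of all marker genes analysed, 0 were at 0 counts in every library. The part of these genes in the results was not tested, and in bulk RNA fewer cells of a type and less RNA per cell cannot be told apart.

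Most members were weakly expressed. Their median level in siCont was 0.49 FPKM, against 4.39 FPKM over all genes, and 31 of the 41 lay below the median of all genes. In every library 23 members (56.1%) were under 1 FPKM, against 33.9% of all genes, and 6 members (14.6%) were at 10 FPKM or more, against 32.9% of all genes. These 6 were B2M, ADAR, IRF3, SAMHD1, TRIM25 and EIF2AK2. SAMHD1 was the only 1 of the 21 interferon-stimulated effectors among them. Among the 21 effectors the median was 0.24 FPKM in siCont, 0.27 FPKM in siERRG2 and 0.3 FPKM in siERRG3.

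**Figure D1:**
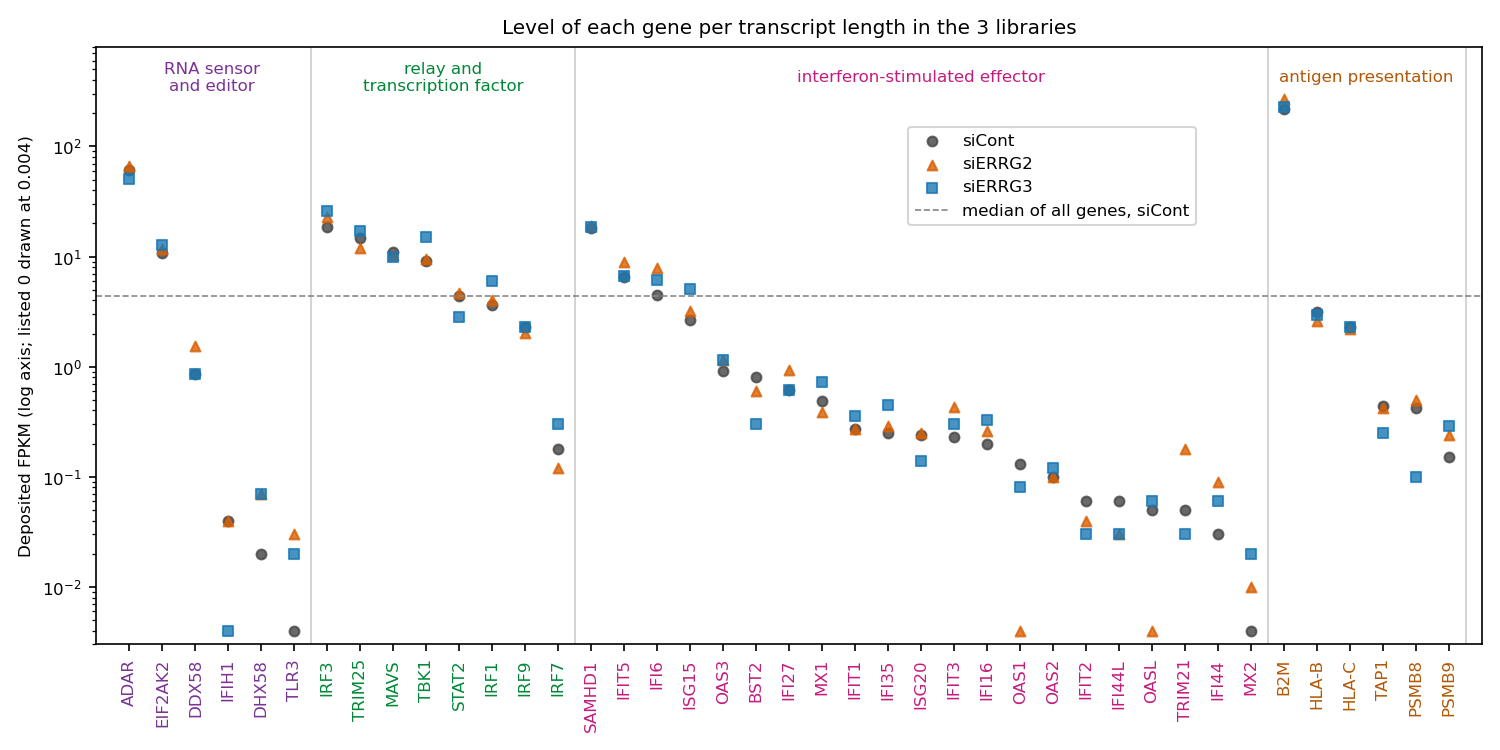
Deposited FPKM (y axis, log scale) of the 41 members (x axis, grouped by role) in siCont (circles), siERRG2 (triangles) and siERRG3 (squares), 1 library each. The dashed line is the median of all genes in siCont, 4.39 FPKM. B2M stands highest, and most effectors lie under 1 FPKM in each library.

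Fold changes were computed for the 27 members that reached 10 counts in 1 library or more, a filter that 14 members (34.1%) did not pass, against 19.6% of all genes. They are differences of log2 CPM (counts relative to library size) scaled between libraries by the TMM method with a prior count of 2 that shrinks the values of weakly covered genes. A member is called higher or lower where it is at least 1.2-fold from siCont, the threshold of the study's methods. Each count ratio has a 95% exact binomial (Clopper-Pearson) interval, which covers counting error only. With 1 library per condition there was no replicate check, the intervals compare libraries and not conditions, and no p-value is given. The siERRG2 and siERRG3 differences share the siCont library and are given side by side.

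In siERRG2, 9 of the 27 members were higher than siCont, where 16.4% of all genes were, and 4 were lower, where 19.2% of all genes were. In siERRG3, 10 were higher, where 23.2% of all genes were, and 5 were lower, where 25.1% were. The same direction in both libraries was found for 4 members that were higher, OAS3, IFI6, IFI16 and IRF3, beside 7.26% of all genes, and for 1 that was lower, BST2, beside 7.88%. The median log2 fold change over the 27 members was 0.13 in siERRG2 and 0.06 in siERRG3, with single members from -0.38 to 0.81 and from -1.28 to 0.87. Over all genes the median was -0.00038 and -0.0033. IFI27 and IFI35 passed the filter only through the library in which they were called higher, so these counts describe the members and nothing is read from them.

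Counting error limits these calls, since 10 of the 27 had a mean under 50 counts. Among the 17 members with a mean of at least 50 counts, 6 were higher and 2 lower in siERRG2, where 12.8% and 15.5% of such genes were. In siERRG3, 5 were higher and 2 lower, where 19.4% and 24.3% of such genes were. In both libraries 3 of the 17 were higher, beside 4.5%, and 0 were lower, beside 6.24%. By the interval alone, 7 of the 27 were above 1 in siERRG2 and 2 below it, where 21.7% and 22.4% of all genes were. In siERRG3, 7 were above 1 and 4 below it, where 27.1% and 28.5% of all genes were. IFI6, EIF2AK2 and IRF3 had intervals above 1 in both libraries (9.12% of all genes) and MAVS had intervals below 1 in both (10.5% of all genes). By this rule, 25.9% of the members were above 1 in each library, which lay on either side of the background, and the lower members were fewer than it gave.

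**Figure D2:**
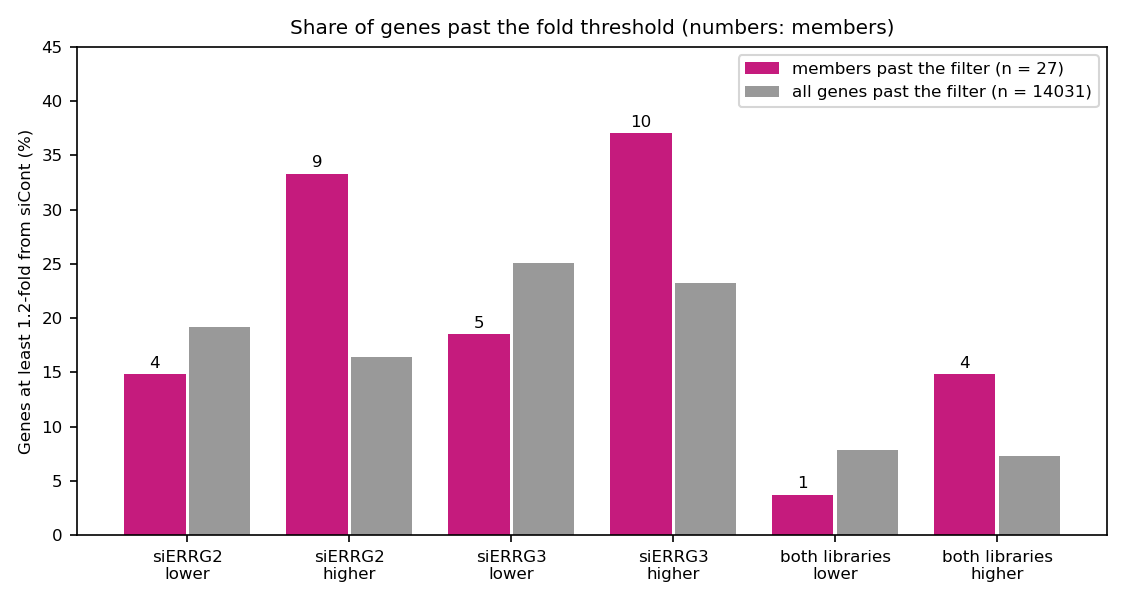
Percent of genes at least 1.2-fold lower or higher than siCont (y axis) in siERRG2, in siERRG3 and in both, for the 27 members past the filter (coloured bars, with the number of members above) and for all 14031 genes past it (grey bars). The 9 members higher in siERRG2 and the 10 higher in siERRG3 include IFI27 and IFI35, which passed the filter only through that library.

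Among the RNA sensors, DDX58, the gene of RIG-I, which detects RNA with a triphosphate at its end, had 82 counts with siCont, 147 with siERRG2 and 81 with siERRG3. Its level stood apart in siERRG2 only, with siCont and siERRG3 nearly equal. The count ratio to siCont was 1.77 in siERRG2 (interval 1.34 to 2.35) and 0.971 in siERRG3 (0.706 to 1.34), and siERRG3 against siERRG2 gave 0.548 (0.413 to 0.724). The gene lies on chromosome 9 from 32455302 to 32526196 (RefSeq, GRCh38.p14, as for all positions here).

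EIF2AK2 encodes PKR, a kinase that double-stranded RNA activates and that stops translation through eIF2α. It had 2001 counts with siCont, 2210 with siERRG2 and 2333 with siERRG3, which is higher in both ESRRG siRNA libraries, but by less than 1.2-fold. The ratios were 1.09 (1.03 to 1.16) and 1.15 (1.08 to 1.22). The gene overlaps GPATCH11, and the sources used here do not say whether strand was used in counting. ADAR, whose product edits adenosine in double-stranded RNA and so keeps self RNA from being sensed, was the second most abundant member per length. It had 7859 counts with siCont, 8554 with siERRG2 and 6565 with siERRG3. The ratio was 1.08 in siERRG2 (1.04 to 1.11) and 0.821 in siERRG3 (0.795 to 0.849), so that the libraries lay on either side of siCont.

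The other sensors were near the limit of detection. IFIH1, the gene of MDA5, a receptor for long double-stranded RNA, had 3 counts with siCont, 3 with siERRG2 and 0 with siERRG3. DHX58, the gene of LGP2, had 1, 3 and 3 counts. TLR3, the endosomal receptor, had 0, 2 and 1 counts. All of these are at or under the 3 counts that a count of 0 allows, a level of about 0.15 CPM, so no difference between libraries was detectable at this depth.

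Of the 8 relay and transcription factor genes, 7 passed the filter. MAVS, the adaptor on mitochondria through which RIG-I and MDA5 signal, was at 2603, 2453 and 2362 counts. It was lower in both ESRRG siRNA libraries by less than 1.2-fold, with ratios of 0.932 (0.881 to 0.985) and 0.892 (0.844 to 0.944). TBK1, the kinase that phosphorylates IRF3, had 569 counts with siCont, 594 with siERRG2 and 931 with siERRG3. The siERRG3 library alone was high, with a ratio of 1.61 (1.45 to 1.79), and siERRG2 had a ratio of 1.03 (0.918 to 1.16). Between the ESRRG siRNA libraries the ratio was 1.56 (1.41 to 1.73).

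IRF3, the factor that is present before infection and starts interferon transcription, had 559 counts with siCont, 682 with siERRG2 and 744 with siERRG3. It was the member with the most counts among the 4 called higher in both libraries, with ratios of 1.21 (1.08 to 1.35) and 1.31 (1.17 to 1.46). IRF3 overlaps BCL2L12 on chromosome 19, where reads of the pair could be split. IRF7, which amplifies the response and is itself interferon-stimulated, had 7, 4 and 9 counts. IRF1, induced by interferon gamma through a gamma-activated site, had 250 counts with siCont, 278 with siERRG2 and 382 with siERRG3. Its ratio was 1.1 in siERRG2 (0.923 to 1.31) and 1.5 in siERRG3 (1.28 to 1.77).

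STAT2 and IRF9 are subunits of the factor for the interferon-stimulated response element. STAT2 had 381 counts with siCont, 405 with siERRG2 and 249 with siERRG3. Here too siERRG3 was the library that stood apart, but on the low side, with a ratio of 0.643 (0.546 to 0.756) beside 1.05 (0.911 to 1.21) in siERRG2. IRF9 had 76, 68 and 77 counts, and both intervals held 1. TRIM25, a ubiquitin ligase that acts with RIG-I, had 1685 counts with siCont, 1383 with siERRG2 and 1988 with siERRG3. Its ratio was 0.811 in siERRG2 (0.755 to 0.872) and 1.16 in siERRG3 (1.09 to 1.24), with both intervals clear of 1 in opposite directions.

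Of the 21 interferon-stimulated effectors, 12 passed the filter, and 6 were higher and 2 lower in siERRG2, beside 16.4% and 19.2% of all genes. In siERRG3, 7 were higher and 1 lower, beside 23.2% and 25.1% of all genes. The higher ones include IFI27 in siERRG2 and IFI35 in siERRG3, which passed the filter only through that library. Nothing is read from these counts. The summed counts of all 21 were 2202 in siCont, 2568 in siERRG2 and 2393 in siERRG3. SAMHD1, a dNTP hydrolase that restricts retroviruses, and IFIT5 held most of them. SAMHD1 had 1305, 1383 and 1375 counts, with ratios of 1.05 (0.971 to 1.13) and 1.04 (0.96 to 1.12). It overlaps TLDC2.

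IFI6, a small antiviral protein of mitochondria and the endoplasmic reticulum, was at 4.45 FPKM with siCont, 7.85 FPKM with siERRG2 and 6.18 FPKM with siERRG3, from 72 counts in the first of these. Both ESRRG siRNA libraries were above siCont. The ratio was 1.76 in siERRG2 (1.31 to 2.38) and 1.38 in siERRG3 (1.01 to 1.89), and the interval between the pair held 1. OAS3, which makes the 2-5A messenger that activates RNase L, had 123 counts with siCont, 154 with siERRG2 and 155 with siERRG3. The ESRRG siRNA libraries had nearly the same count. Both ratios were 1.24, and both intervals held 1, from 0.97 to 1.58 and from 0.972 to 1.58. Its log2 fold changes of 0.30 in both fell to 0.16 and 0.17, under the threshold, on FPKM with a pseudocount of 1. IFI16, a sensor of DNA, had 11, 14 and 17 counts, with intervals that held 1, and overlaps AIM2 and PYDC5.

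The IFIT genes, of which IFIT1 and IFIT5 encode proteins that bind foreign 5′ ends of RNA, sit close together on chromosome 10. There each overlaps the extent of LIPA. IFIT5, from 89414568 to 89420997, had 533 counts with siCont, 720 with siERRG2 and 544 with siERRG3. Like DDX58, it was high in siERRG2 alone, with a ratio of 1.34 (1.19 to 1.5), against 1 in siERRG3 (0.889 to 1.13). IFIT1 had 24, 24 and 32 counts. IFIT3 had 12, 21 and 15 counts. IFIT2 had 4, 3 and 2 counts. Per length, IFIT5 was at 6.59, 8.89 and 6.67 FPKM, and the other IFIT genes did not pass 0.43 FPKM in any library. The intervals of IFIT1 and IFIT3 held 1, and reads shared among these related genes could be split by the counting.

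ISG15, a ubiquitin-like protein that is joined to other proteins in the interferon response, had 34 counts with siCont, 41 with siERRG2 and 65 with siERRG3. The siERRG3 library was the high one, with a ratio of 1.88 (1.22 to 2.94), beside 1.19 (0.738 to 1.94) in siERRG2. MX1, a GTPase against RNA viruses, had 29 counts with siCont, 23 with siERRG2 and 41 with siERRG3. It was the only member called in opposite directions, with log2 fold changes of -0.33 and 0.45, and both intervals to siCont held 1.

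BST2, also called tetherin, which holds budding virus on the cell, had 16 counts with siCont, 12 with siERRG2 and 6 with siERRG3. It was called lower in both libraries, with ratios of 0.741 (0.32 to 1.67) and 0.369 (0.118 to 0.992). IFI27 had 6, 11 and 6 counts and IFI35 had 6, 7 and 11, and both only just passed the filter, with intervals that held 1. The 9 effectors under the filter were IFIT2, ISG20, MX2, OAS1, OAS2, OASL, IFI44, IFI44L and TRIM21.

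The 14 members under the filter, which besides these 9 effectors were IFIH1, DHX58, TLR3, IRF7 and PSMB9, reached at most 9 counts. Summed, they had 45 counts with siCont, 47 with siERRG2 and 44 with siERRG3. The ratio of the sums was 1.03 in siERRG2 (0.671 to 1.59) and 0.961 in siERRG3 (0.62 to 1.49). Within them ISG20, an RNA exonuclease, had 9, 8 and 6 counts, and OAS2 had 5, 5 and 7. OAS1 was at 4, 0 and 2 counts and MX2 at 0, 1 and 1. TRIM21, an intracellular antibody receptor, was at 2, 7 and 1. IFI44 was at 1, 4 and 3 counts, IFI44L at 4, 2 and 1, and OASL at 2, 0 and 2. In 5 members, IFIH1, DHX58, TLR3, MX2 and OASL, every library was at or under 3 counts. OAS1, MX2 and IFI44L, which are strongly induced by interferon in other cells, were thus at or near 0 in each library.

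**Figure D3:**
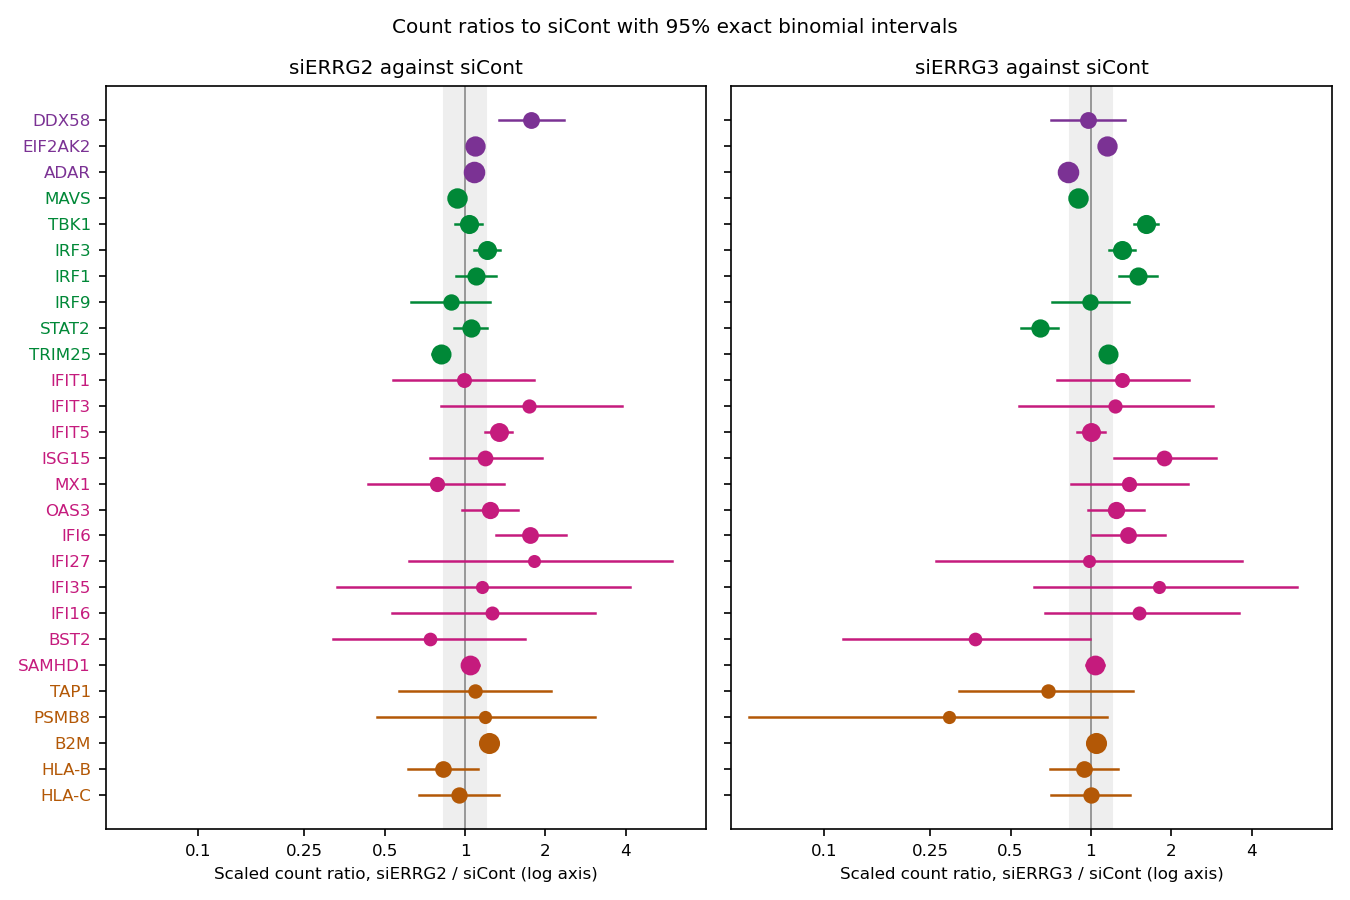
Scaled count ratio to siCont (x axis, log scale) of the 27 members past the filter in siERRG2 (left) and siERRG3 (right), coloured by role, with point size rising with mean count. Lines are 95% exact binomial intervals for counting error only, and the grey band spans less than 1.2-fold either way. Among the members outside the band, DDX58, IFI6 and IFIT5 stand to its right in siERRG2, and TBK1, IRF1 and ISG15 in siERRG3, with STAT2 to its left. Members with fewer counts also lie outside it. Among them are IFIT3 and IFI27 on the right in siERRG2. In siERRG3 they include IFI35 and IFI16 on the right and PSMB8, BST2 and TAP1 on the left.

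For antigen presentation, B2M, the light chain of every MHC class I molecule, was the most abundant member, with 217 FPKM in siCont, 271 FPKM in siERRG2 and 229 FPKM in siERRG3. It had 4218, 5263 and 4464 counts. The siERRG2 library was the high one, with a ratio of 1.23 (1.18 to 1.28), beside 1.04 (0.998 to 1.09) in siERRG3. The heavy chain genes HLA-B and HLA-C were far lower per length: in siCont the B2M level was 69.9 times that of HLA-B and 94.1 times that of HLA-C. HLA-B had 99 counts with siCont, 83 with siERRG2 and 95 with siERRG3. HLA-C had 72, 69 and 73 counts, nearly the same in each library. The HLA-B call of lower in siERRG2, at a log2 fold change of -0.27, ended under scaling by total counts, at -0.25, and both intervals of both genes held 1. The class I heavy chain genes are near-identical and highly variable between people, so their counts depend on how reads were assigned.

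TAP1, a subunit of the peptide transporter, and PSMB8 and PSMB9, catalytic subunits of the immunoproteasome, lie next to each other on chromosome 6, between 32840717 and 32859851. TAP1 had 20 counts with siCont, 22 with siERRG2 and 14 with siERRG3. PSMB8 had 10, 12 and 3 counts, and PSMB9 had 3, 5 and 6. All 3 genes were under 1 FPKM in every library. PSMB8 had the lowest ratio of the members in siERRG3, 0.295, but its interval, from 0.0522 to 1.15, held 1.

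Other genes of class I presentation were read from a list of 22, of which 21 passed the filter. In siERRG2, 5 (23.8%) were higher and 3 (14.3%) lower, beside 16.4% and 19.2% of all genes. In siERRG3, 3 (14.3%) were higher and 4 (19.0%) lower, beside 23.2% and 25.1% of all genes. The median log2 fold changes were 0.09 and 0.07. By the rule for named genes, TAP2, the partner of TAP1, was higher in both, with 119, 192 and 167 counts and ratio intervals of 1.26 to 2.02 and 1.08 to 1.76. CALR, the chaperone calreticulin of the loading complex, was lower in both, with 25734 counts with siCont, 12749 with siERRG2 and 21686 with siERRG3. Its log2 fold changes were -1.03 and -0.27. Further genes, PSMB5, PSMB10 and NLRC5, were picked with their values known. The constitutive proteasome subunit PSMB5 was at 286, 322 and 325 FPKM, where its immunoproteasome counterpart PSMB8 was at 0.42, 0.5 and 0.1 FPKM. PSMB10, another catalytic subunit of the immunoproteasome, was far above PSMB8, at 11.4, 9.92 and 11.9 FPKM. NLRC5, the transactivator of class I genes, had 17, 3 and 7 counts and passed the filter only through siCont.

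**Figure D4:**
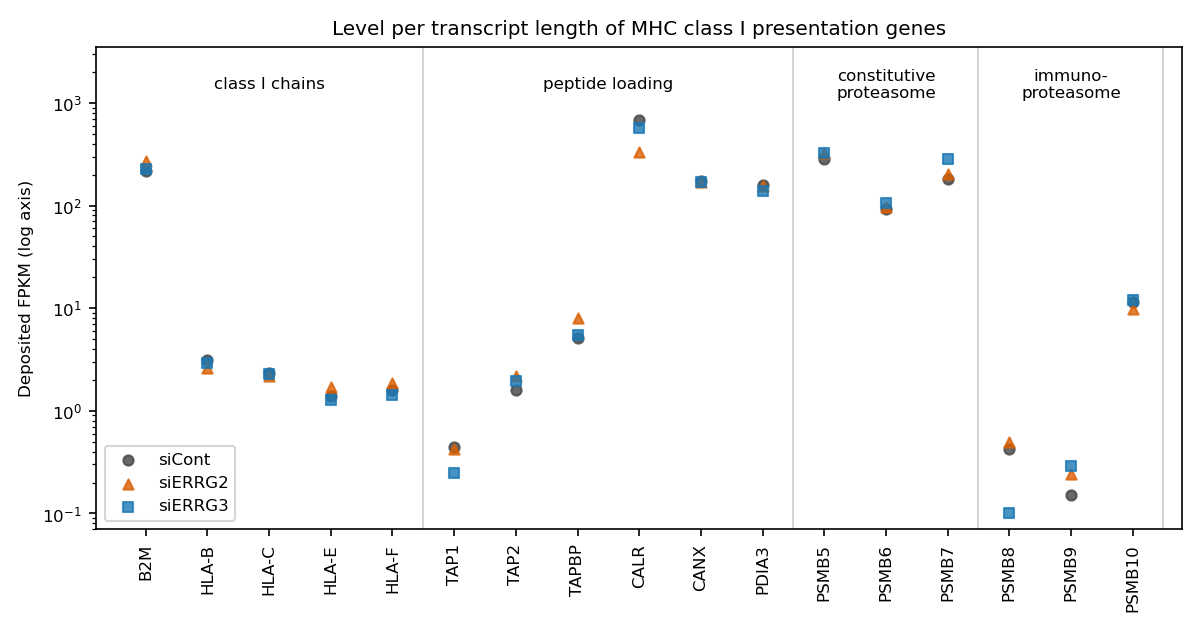
Deposited FPKM (y axis, log scale) of genes of MHC class I presentation (x axis, members and further genes, grouped by function) in siCont (circles), siERRG2 (triangles) and siERRG3 (squares), 1 library each. B2M stands far above HLA-B and HLA-C in each library, and PSMB5 to PSMB7 stand far above PSMB8 and PSMB9. The immunoproteasome gene PSMB10 lies between these proteasome genes.

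The ESRRG siRNA libraries were also set against each other, to see how far siRNAs against the same gene gave the same values. In siERRG3 against siERRG2, 10 of the 27 members were at least 1.2-fold lower, where 25.3% of all genes were, and 7 were higher, where 26.4% were. By the interval, 6 members were below 1, where 28.4% of all genes were, and 5 above it, where 29.1% were. IFIT5, DDX58, STAT2, PSMB8, B2M and ADAR were lower in siERRG3 and ISG15, MX1, IRF1, TBK1 and TRIM25 higher by that rule. The ESRRG level itself did not separate the pair, with a ratio of 1.08 (0.896 to 1.31). Neither call to siCont was made for EIF2AK2, IRF9, MAVS, HLA-C and SAMHD1.

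The promoter cores shown above were set beside the counts. Of the 14 members past the filter that held the core, 7 were higher and 2 lower in siERRG2, and 6 higher and 3 lower in siERRG3, with median log2 fold changes of 0.26 and 0.23. Of the 12 past the filter with a window but no core, 1 was higher and 2 lower in siERRG2, and 3 higher and 2 lower in siERRG3, with medians of 0.06 and -0.0047. Over all genes, 16.4% were higher and 19.2% lower in siERRG2, and 23.2% and 25.1% in siERRG3. IFI27, which held the core, and IFI35, which did not, passed the filter only through the library in which they were called higher. Nothing is read from these counts, and the difference between these groups was not tested. The groups also differed in level, with a median of 0.43 FPKM in siCont for the 20 genes with the core and 3.36 FPKM for the 14 without.

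Upstream of the members, the 10 interferon genes of the list (such as IFNB1 and IFNL1) were not analysed here. Of 20 genes of the interferon receptors, JAK-STAT signalling and feedback, 18 passed the filter, and 3 (16.7%) were higher and 2 (11.1%) lower in siERRG2, where the higher share was about the 16.4% of all genes and the lower share under their 19.2%. In siERRG3, 7 (38.9%) were higher and 4 (22.2%) lower, beside 23.2% and 25.1% of all genes. USP18, an enzyme that removes ISG15 from proteins and restrains the receptor, had 70 counts with siCont, 125 with siERRG2 and 123 with siERRG3, and was higher in both, at log2 fold changes of 0.80 and 0.77. JAK2, a kinase of the interferon gamma receptor, had 238, 301 and 298 counts and log2 fold changes of 0.32 and 0.30. Of 27 sensing adaptors, kinases and cofactors, 22 passed the filter, and 2 (9.09%) were higher and 1 (4.55%) lower in siERRG2, beside 16.4% and 19.2% of all genes. In siERRG3, 5 (22.7%) were higher and 6 (27.3%) lower, close to the 23.2% and 25.1% of all genes.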

How the data were processed

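The authors transfected H128 cells for 48 h and sequenced 1 library per condition. The labels describe a directional kit and paired ends, the methods single-end reads of the MGISEQ2000 system aligned to hg19 with BWA and Bowtie 2. The submitters' processing notes list hg19, hg38, GRCh38, TopHat2, HTSeq and DESeq2 with no role, and the program behind the counts is not given in the sources used here. The deposited table holds estimated counts, not normalized and not always whole, and per-length values whose unit is not named and that behave as FPKM, per the deposited values. Its columns of log2 ratios, p-values and false discovery rates are the authors' own comparisons and were not used. Gene positions were taken from RefSeq by gene ID.

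Counts were rounded, filtered at 10 counts in at least 1 library (14031 genes) and scaled with edgeR 4.0.16 (TMM, prior count 2) in R 4.3.3. TMM factors were 0.994 to 1.003. Intervals were computed with SciPy 1.17.1. The steps were tested on simulated data. Some items of the lists are not reported here. There was 1 library per condition, so no test was made, and intervals and floors cover counting error only. Alternatives were total counts, DESeq2 1.42.0 size factors, FPKM with pseudocounts of 0.1 and 1, a prior count of 0.5, other filters and other thresholds. Members and lists were chosen with earlier results of these data known. All 41 members are named. Of the other lists, genes were named that had a mean of at least 50 counts, passed 1.2-fold the same way in both ESRRG siRNA libraries and had both intervals clear of 1, and any other gene is said to be chosen after its values were seen. The immune, endothelial and fibroblast markers and the neuroendocrine markers were named as checks of the cell type.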

Additional observations from a re-analysis of the deposited data

Results flagged for a closer look

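MX1 moved in opposite directions in the ESRRG siRNA libraries, each against the shared siCont library, with a log2 fold change of -0.33 in siERRG2 and 0.45 in siERRG3. It was flagged because the libraries of the same contrast were past 1.2-fold on either side of siCont. TRIM25, with ratios of 0.811 and 1.16, and ADAR, with 1.08 and 0.821, also lay on either side. Their intervals were clear of 1, but each passed 1.2-fold in 1 library only. For MX1, the evidence is weaker by counts. The MX1 counts were 29, 23 and 41 in the order siCont, siERRG2, siERRG3, and the ratio intervals of 0.433 to 1.4 and 0.843 to 2.32 both held 1. With 1 library per condition the difference between the conditions was not tested. With the deposited FPKM and a pseudocount of 1, the log2 fold changes of MX1 were -0.10 and 0.21.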

How the results depend on the processing

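No paired analysis was possible because each condition had 1 library. Of 537 values of single members under the alternatives, 536 stayed within the counting interval of the reported value and 0 reversed. The other, DDX58 in siERRG3 against siERRG2, was -0.45 with FPKM and a pseudocount of 1. That setting also moved ESRRG, to -1.52 in siERRG2 and -1.45 in siERRG3. The counts of members depended on filter and threshold. With no filter, 9 were lower and 15 higher in siERRG2, 11 and 17 in siERRG3, 17 and 11 in siERRG3 against siERRG2, and 4 and 9 in both libraries against siCont, but these include genes of a few counts. With a mean of at least 50 counts, 2 were lower in siERRG2, 2 lower and 5 higher in siERRG3, 5 lower and 3 higher in siERRG3 against siERRG2, and 0 lower in both. With FPKM and a pseudocount of 1, 1 was lower and 5 higher in siERRG2, 5 higher in siERRG3, and 0 lower and 2 higher in both. At 1.5-fold, 0 were lower and 4 higher in siERRG2, 3 and 3 in siERRG3, 6 and 3 in siERRG3 against siERRG2, and 0 and 0 in both. At 2-fold, 0 were lower and 0 higher in siERRG2, 2 and 0 in siERRG3, 1 and 0 in siERRG3 against siERRG2, and 0 and 0 in both. By the interval, 2 were lower in siERRG2 and 6 in siERRG3 against siERRG2, and the 1 member lower in both was MAVS, not BST2. Total counts, DESeq2 size factors, FPKM with a pseudocount of 0.1 and a prior count of 0.5 kept each count within 1.5 times. With FPKM and a pseudocount of 1, the calls of IFIT1, IFIT3, MX1, OAS3, IFI27, IFI35, IFI16 and TAP1 against siCont, and those of BST2 and HLA-B in siERRG2, fell under 1.2-fold. Depth limits the 10 members past the filter with a mean under 50 counts.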

Other observations

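Further interferon-stimulated genes were read from a list of 38, of which 37 were in the table and 30 passed the filter. In siERRG2, 9 (30%) were higher and 7 (23.3%) lower, beside 16.4% and 19.2% of all genes. In siERRG3, 13 (43.3%) were higher and 11 (36.7%) lower, beside 23.2% and 25.1% of all genes. In both libraries 7 (23.3%) were higher and 5 (16.7%) lower, beside 7.26% and 7.88% of all genes. The list was weakly expressed, with a median of 0.38 FPKM in siCont. Some of these genes, chosen after their values were seen, passed the filter only through the library where they were highest. Among the higher they were CMPK2 and CXCL10 (siERRG2) and IFITM2, PARP9 and CXCL11 (siERRG3). Among the lower it was LAMP3 (siCont). These counts describe the list and nothing is read from them. By the rule for named genes, PARP12, an antiviral ADP-ribosyltransferase, was at 0.85, 1.45 and 1.67 FPKM with siCont, siERRG2 and siERRG3, and its log2 fold changes were 0.67 and 0.95. HERC5, the ligase that joins ISG15 to proteins, had 66, 97 and 114 counts and log2 fold changes of 0.53 and 0.75. Chosen after its values were seen, CXCL10, a chemokine induced by interferon gamma, had 1, 14 and 0 counts and passed the filter only through siERRG2. DTX3L, a ubiquitin ligase that works with PARP9, also chosen after its values were seen, had 17, 36 and 42 counts, with ratio intervals of 1.15 to 3.97 and 1.35 to 4.55. Of 10 MHC class II genes, 6 passed the filter. In siERRG2, 1 (16.7%) was higher and 2 (33.3%) lower, beside 16.4% and 19.2% of all genes. In siERRG3, 2 (33.3%) were higher and 2 (33.3%) lower, beside 23.2% and 25.1%. HLA-DQB1 and HLA-DMA are named after their values were seen. HLA-DQB1, at 4, 5 and 14 counts, passed the filter only through siERRG3, where it was called higher. HLA-DMA, at 10, 8 and 3 counts, passed it only through siCont and was called lower in both libraries. Nothing is read from these class II counts.

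A pair of gene sets was added after the values were seen. The table assigns 95 genes to a published interferon alpha response set, of which 72 passed the filter and 16 of those are members described above. Of the 72, 18 (25%) were higher and 14 (19.4%) lower in siERRG2, beside 16.4% and 19.2% of all genes, and 28 (38.9%) higher and 15 (20.8%) lower in siERRG3, beside 23.2% and 25.1%. In the interferon gamma response set, 145 of 196 genes passed the filter, and 20 of those are members. Of the 145, 37 (25.5%) were higher and 27 (18.6%) lower in siERRG2. In siERRG3, 48 (33.1%) were higher and 31 (21.4%) lower, beside the same shares of all genes. The median log2 fold changes were 0.09 and 0.11 for the first set and 0.06 and 0.01 for the second. Both sets were weakly expressed, with medians of 0.62 and 0.565 FPKM in siCont, against 4.39 FPKM over all genes. Genes that passed the filter only through the library where they were highest were not set apart. These counts describe the sets and nothing is read from them.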
